A study of Mus musculus with 8 samples.

Results

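The genes described here were 10 interferon-inducible GTPase genes of mouse 4T1 cells, *Iigp1*, *Irgm1*, *Irgm2* and *Igtp* of the immunity-related GTPase (IRG) family and *Gbp2*, *Gbp3*, *Gbp5*, *Gbp6*, *Gbp7* and *Gbp9* of the guanylate-binding protein (GBP) family. They were picked out by gene symbol from the 28712 genes listed in either deposited table, and no member symbol occurred more than once. The 10 members were chosen from earlier results of these same libraries, so their levels, fold changes and counts of calls are given as a description, and no p-value of a member is printed. 4T1 is a mouse mammary tumor cell line used as a model of triple-negative breast cancer, labelled wild type in the untreated group. A single-domain antibody (sdAb), or nanobody, consists of 1 antigen-binding domain of the kind found in camels and llamas. Clone sdAb#07.81 was selected against NUPR1, an intrinsically disordered stress protein of the nucleus, and the purified protein carries a degron and a cell-penetrating Tat sequence. sdAb-Con is the control clone, and its purified protein carries the same degron and Tat sequence. The cells were cultured at 1% O2, as the labels state, and received 0.5 μg/mL of purified sdAb#07.81 for 24 h, sdAb#07.81 for 48 h or sdAb-Con for 48 h, with 2 libraries in each of these groups. All 6 libraries therefore came from antibody-treated cells of a single cell line, and the sources used here do not say whether the 2 libraries of a group came from separate cultures. The Con group, with 2 libraries and no sdAb, was not analysed here.

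IRG and GBP proteins are large GTPases that cells make in response to interferons. They gather on the membranes around intracellular bacteria and parasites and help to break these compartments open. Interferon gamma drives their genes through GAS sites and through IRF1, which binds interferon-stimulated response elements (ISREs), whereas type I interferons act through a complex that holds STAT2 and IRF9 and also binds ISREs. Macrophages, fibroblasts and epithelial cells can all express both families.

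All 10 members had their lowest levels in sdAb#07.81 (24 h), intermediate levels in sdAb-Con (48 h) and their highest levels in sdAb#07.81 (48 h), without overlap between libraries of different groups. Of the 13843 genes with a mean normalized count of 10 or more, 5.3% had this order, and since the members were chosen on these contrasts nothing is read from their count. In bulk RNA, more cells expressing a gene and more RNA per cell cannot be told apart. The median fold change of the members on the log2 scale was 1.20 for sdAb#07.81 (48 h) against sdAb-Con (48 h) and 3.55 for sdAb#07.81 (48 h) against sdAb#07.81 (24 h). The control clone at 48 h thus already stood above the anti-NUPR1 clone at 24 h, with a median log2 fold change of 2.16. That last pair of groups differs in clone and in time at once, and the contributions of clone and time to it cannot be told apart.

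The deposited annotation names no genome build, and its positions differ from GRCm38. It places *Gbp5* (ENSMUSG00000105504) from 142199739 to 142228105, *Gbp7* (ENSMUSG00000040253) from 142236103 to 142255910, *Gbp3* (ENSMUSG00000028268) from 142265787 to 142278970 and *Gbp2* (ENSMUSG00000028270) from 142326363 to 142343769 on the plus strand of chromosome 3. On the minus strand of chromosome 5 it has *Gbp9* (ENSMUSG00000029298) from 105225496 to 105287405 and *Gbp6* (ENSMUSG00000104713) from 105418568 to 105441564. On chromosome 11 it has *Igtp* (ENSMUSG00000078853) from 58090382 to 58098417 and *Irgm2* (ENSMUSG00000069874) from 58090444 to 58113608 on the plus strand and *Irgm1* (ENSMUSG00000046879) from 48752795 to 48762510 on the minus strand. *Iigp1* is listed as ENSMUSG00000054072.

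Promoter sequences of the members, from 250 bases before to 50 bases after the annotated start site, were taken from RefSeq on the mouse build GRCm38.p6, and 7 of the members had a window there. These were *Irgm1*, *Irgm2*, *Igtp*, *Gbp2*, *Gbp3*, *Gbp5* and *Gbp7*. They are shown because the ISRE core, spelled GAAANNGAAA and searched on both strands, occurred in all 7 of them. Over all genes with a promoter window, 3.99% of 27025 had such a match. The GAS letters, TTCNNNGAA, read the same on both strands and occurred in 4 of the 7 (*Irgm2*, *Igtp*, *Gbp5* and *Gbp7*), against 9.55% of all genes. Both motifs stood in the same window of 4 members and of 0.54% of all genes. The GAS matches of *Gbp5*, and the GAS match of *Gbp7* farther from the start site, lie outside the stretches printed here. The stretches around the ISRE matches follow, 5′ to 3′ along the gene, with the ISRE and GAS matches inside them in capitals.
Irgm1: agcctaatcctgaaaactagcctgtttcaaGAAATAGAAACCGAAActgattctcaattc
Irgm2: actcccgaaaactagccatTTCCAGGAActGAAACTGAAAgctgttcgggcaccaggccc
Igtp: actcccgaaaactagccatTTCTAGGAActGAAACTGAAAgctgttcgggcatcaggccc
Gbp2: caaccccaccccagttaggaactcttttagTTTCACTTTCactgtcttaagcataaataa
Gbp3: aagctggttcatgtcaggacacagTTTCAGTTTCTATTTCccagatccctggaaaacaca
Gbp5: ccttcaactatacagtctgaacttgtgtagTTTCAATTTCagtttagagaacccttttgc
Gbp7: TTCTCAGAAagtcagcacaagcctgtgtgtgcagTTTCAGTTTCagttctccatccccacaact

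On GRCm38.p6 these stretches lie at chr11:48871421-48871480 (*Irgm1*, minus strand), chr11:58214883-58214942 (*Irgm2*), chr11:58199492-58199551 (*Igtp*), chr3:142620574-142620633 (*Gbp2*), chr3:142559975-142560034 (*Gbp3*), chr3:142496739-142496798 (*Gbp5*) and chr3:142530249-142530312 (*Gbp7*), the last 6 on the plus strand. The IRG promoters carried the ISRE core in the forward direction and the GBP promoters carried it in the reverse direction. In *Irgm1* and *Gbp3* a pair of ISRE matches overlapped. The stretches of *Igtp* and *Irgm2* were identical at 58 of 60 bases, and in both a GAS match was closely followed by an ISRE match. The ISRE match nearest to the start site began 24 bases before it in *Irgm1*, 34 bases before it in *Igtp* and 39 bases before it in *Gbp3*, and the farthest began 165 bases before it in *Gbp5*. A match of letters is a description of the sequence and does not show that a factor was bound.

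**Figure D1:**
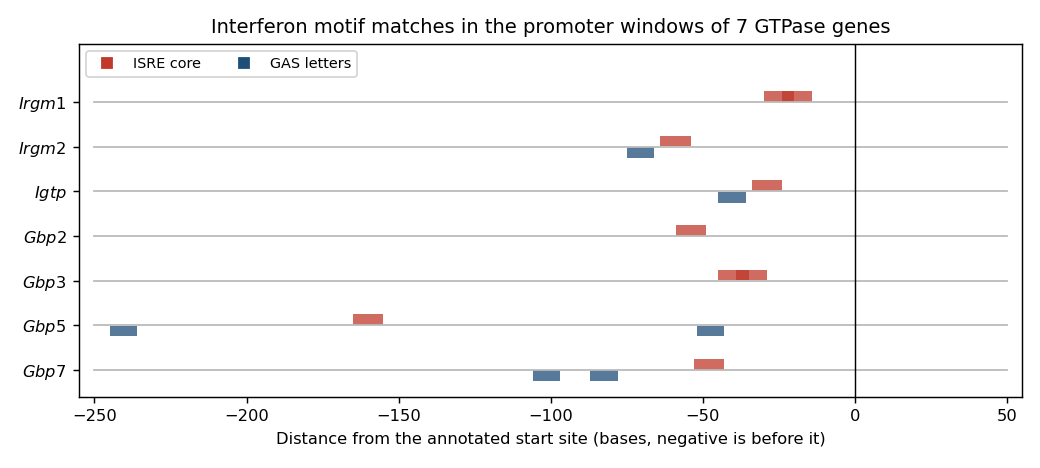
Positions of ISRE core matches (red) and GAS letter matches (blue) in the RefSeq promoter windows of 7 GTPase genes, with the distance from the annotated start site in bases on the horizontal axis and 1 row per gene. All 7 rows hold an ISRE match, and 4 rows also hold a GAS match.

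Each deposited table lists the mean over 4 libraries, and the whole reads of each library were recovered from these means by solving them for whole numbers. The recovered reads amounted to between 13142533 and 16224512 per library, without 110 abundant genes that had no single solution. At this depth standard errors of log2 fold changes had a median of 0.141 to 0.158 over the tested genes. Reads were divided by size factors of the libraries to give normalized read counts. Of the epithelial markers, *Krt8*, *Krt18*, *Epcam* and *Cdh1* had at least 2636 reads in every library, and *Krt14* had 224 to 710. Of 11 leukocyte markers, 4 were not listed in either table, and *Ptprc*, *Cd3e*, *Adgre1*, *Itgam* and *Lyz2* had at most 4 reads in any library and *Coro1a* 5 to 10. *Cd68*, a lysosomal protein that is not restricted to leukocytes, made up nearly all of the summed leukocyte marker count, which was 248 to 280 in sdAb#07.81 (24 h), 653 to 1042 in sdAb-Con (48 h) and 508 to 661 in sdAb#07.81 (48 h). All 3 fibroblast markers were detected, with summed normalized counts of 1191 to 1277 in sdAb#07.81 (24 h), 827 to 842 in sdAb-Con (48 h) and 804 to 901 in sdAb#07.81 (48 h). Most of this sum was *Pdgfra*, with 1042 and 1304 reads in sdAb#07.81 (24 h) and 573 to 636 in the other libraries. *Col1a1* and *Dcn* differed between the libraries of sdAb#07.81 (24 h), at 214 and 40 and at 52 and 3 reads, against 139 to 206 and 28 to 46 in the others. The part of these differences in the results was not tested. *Nupr1* RNA, which does not measure the targeted protein, had normalized counts of 2897 and 2900 in sdAb#07.81 (48 h), 3553 and 2978 in sdAb-Con (48 h) and 1543 and 2119 in sdAb#07.81 (24 h).

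Among the 4 IRG members, *Iigp1*, an effector GTPase that coats the vacuoles of parasites, was the least abundant in reads. Its normalized counts were 105.6 and 165.1 in sdAb#07.81 (48 h), 26.65 and 37.28 in sdAb-Con (48 h) and 4.55 and 10.4 in sdAb#07.81 (24 h). The 24 h values rested on 5 and 11 reads, and the 3 groups did not overlap. The level in sdAb#07.81 (48 h) was 4.15-fold that in sdAb-Con (48 h), 2.05 on the log2 scale with a standard error of 0.304, the highest among the members. Against sdAb#07.81 (24 h) its value was 4.17 ± 0.505 (SE), again the highest among them, though without library a of sdAb#07.81 (24 h) it was 3.60, below *Igtp* at 3.81 and *Gbp3* at 3.68.

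*Irgm1* belongs to the regulatory IRG proteins, which sit on the cell's own membranes and keep the effector GTPases in check. It gave 1392 and 1995 normalized counts in sdAb#07.81 (48 h), 968.9 and 1025 in sdAb-Con (48 h) and 449.9 and 402.1 in sdAb#07.81 (24 h). This gene started from the highest 24 h level of the 4 IRG members and rose least, 1.67-fold against sdAb-Con (48 h) and 3.91-fold against sdAb#07.81 (24 h). The standard errors of its log2 fold changes, 0.74 and 1.97, were 0.133 and 0.167.

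*Irgm2*, a second regulatory gene, gave 893.4 and 1229 normalized counts in sdAb#07.81 (48 h), 497.8 and 482.5 in sdAb-Con (48 h) and 139.3 and 166.0 in sdAb#07.81 (24 h). Its log2 fold changes were 1.09 ± 0.139 (SE) against the control clone and 2.78 ± 0.195 against 24 h. *Igtp*, the third regulatory gene and also called Irgm3, gave 863.3 and 1265 normalized counts in sdAb#07.81 (48 h), 523.5 and 476.3 in sdAb-Con (48 h) and 64.66 and 73.97 in sdAb#07.81 (24 h). Its fold change against the control clone, 1.06 ± 0.146, was like that of *Irgm2*, whereas the change against 24 h, 3.91 ± 0.254, exceeded that of *Irgm2* by more than their summed standard errors. In the deposited annotation *Igtp* and *Irgm2* overlap on the same strand of chromosome 11 over 7974 bases, which is 99.2% of *Igtp*, so the assignment of reads between this pair is uncertain.

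The 6 GBP members belong to 2 gene clusters, on chromosomes 3 and 5. *Gbp2*, which is anchored to membranes by a lipid tail and acts against vacuolar bacteria and parasites, was the most abundant of the members per length at 48 h. Its normalized counts were 2697 and 3605 in sdAb#07.81 (48 h), 2215 and 1632 in sdAb-Con (48 h) and 231.3 and 264.6 in sdAb#07.81 (24 h). The 24 h libraries were thus far below the others, and the nearest libraries of the 48 h groups were 2215 and 2697. *Gbp2* had the smallest fold change of the members against sdAb-Con (48 h), 1.64-fold, and the highest for sdAb-Con (48 h) against sdAb#07.81 (24 h), 7.69-fold. The nearest members, *Irgm1* and *Igtp*, were within a standard error of these values, and without library a of sdAb-Con (48 h) *Irgm1* (0.70 on the log2 scale) was below *Gbp2* (0.93) in the first and *Igtp* (2.78) above *Gbp2* (2.72) in the second, and *Gbp6* was also above *Gbp2* in the second without library b of sdAb#07.81 (24 h).

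*Gbp3* gave 1384 and 1830 normalized counts in sdAb#07.81 (48 h), 657.7 and 540.5 in sdAb-Con (48 h) and 85.60 and 123.3 in sdAb#07.81 (24 h). It had the second-highest log2 fold change of the members in both comparisons of sdAb#07.81 (48 h), 1.41 ± 0.135 (SE) against the control clone and 3.95 ± 0.217 against 24 h, though the next members, *Gbp6* and *Igtp*, were within its standard error. *Gbp5*, a lipid-anchored GBP linked to inflammasome activation, gave 301.2 and 471.5 normalized counts in sdAb#07.81 (48 h), 187.5 and 132.5 in sdAb-Con (48 h) and 30.96 and 37.93 in sdAb#07.81 (24 h). Its libraries differed most within both 48 h groups, and its log2 fold changes were 1.24 ± 0.197 and 3.44 ± 0.324.

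*Gbp7*, which has been tied to oxidative killing of bacteria, gave 1480 and 1705 normalized counts in sdAb#07.81 (48 h), 684.3 and 557.1 in sdAb-Con (48 h) and 170.3 and 214.3 in sdAb#07.81 (24 h). Its log2 fold changes were 1.36 ± 0.126 and 3.05 ± 0.162. *Gbp9* and *Gbp6* had the closest libraries within sdAb#07.81 (48 h). *Gbp9* gave 2639 and 2821 normalized counts in sdAb#07.81 (48 h), with 1281 and 1158 in sdAb-Con (48 h) and 311.4 and 537.7 in sdAb#07.81 (24 h). Its log2 fold changes were 1.16 ± 0.113 and 2.74 ± 0.178. *Gbp6* was low in reads, with 146.0 and 148.8 normalized counts in sdAb#07.81 (48 h), 59.01 and 53.84 in sdAb-Con (48 h) and 6.38 and 16.1 in sdAb#07.81 (24 h). Its log2 fold changes were 1.38 ± 0.231 and 3.81 ± 0.417, and the latter was 3.16 without library a and 4.44 without library b of sdAb#07.81 (24 h). The log2 fold change of sdAb-Con (48 h) against sdAb#07.81 (24 h), 2.43, was 1.78 and 3.06 without the same libraries. The annotated span of *Gbp9* overlaps *Gbp8* over its whole length and *Gbp4* over 38.4% of it, and *Gbp6* lies within the predicted gene *Gm43302*, all on the same strand, so reads of these genes could have been split or lost in counting.

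**Figure D2:**
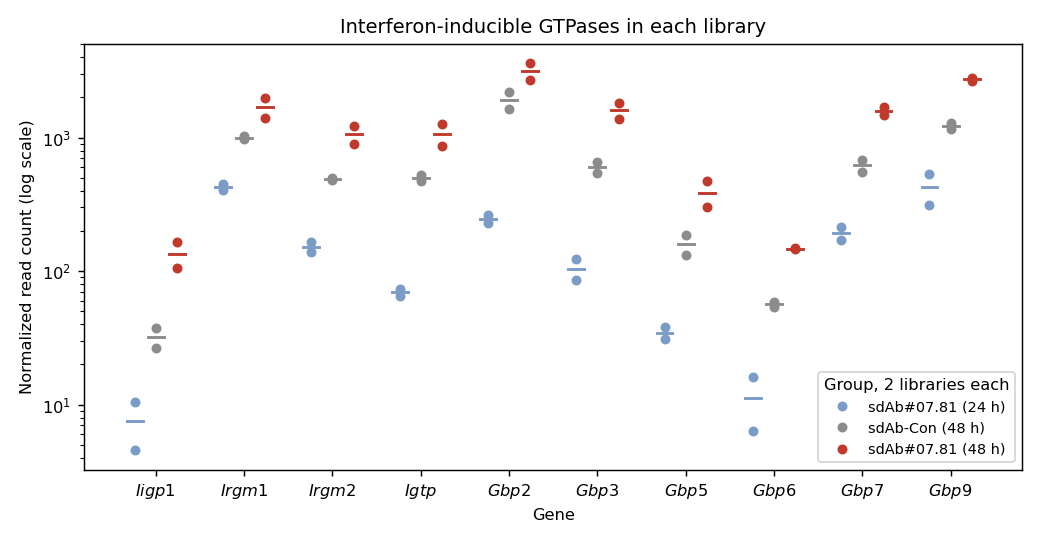
Normalized read counts on a log scale of the 10 GTPase genes, with 1 point per library and a bar at the mean of each group of 2 libraries. In each gene the libraries of sdAb#07.81 (24 h) are lowest, those of sdAb-Con (48 h) intermediate and those of sdAb#07.81 (48 h) highest, without overlap.

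Most members also differed in the same direction between the libraries of a group. In library b of sdAb#07.81 (48 h) all 10 members were above library a, and the median absolute log2 ratio between these libraries was 0.44 over the members, against 0.16 over all genes whose mean reached 10 normalized counts. In sdAb-Con (48 h) library a was the higher for 8 of the members, with a median absolute log2 ratio of 0.21 against 0.16 over all such genes. In sdAb#07.81 (24 h) library b was the higher for 9 of them, all but *Irgm1*, with a median of 0.31 against 0.18, and the widest ratio was that of *Gbp6*, 1.34 on the log2 scale. The letters a and b only name the libraries within a group. The share of all genes with the same library higher was not counted, so nothing is read from these counts of members. Summed over the 10 members, normalized counts were 11901 and 15234 in sdAb#07.81 (48 h), 7101 and 6095 in sdAb-Con (48 h) and 1494 and 1846 in sdAb#07.81 (24 h). As a share of the recovered reads, the members took 836 and 1067 of every 1000000 reads in sdAb#07.81 (48 h), 488 and 439 in sdAb-Con (48 h) and 101 and 127 in sdAb#07.81 (24 h). The recovered reads leave out abundant genes that held 22.7% of the summed means in the sdAb-Con table and 18.9% in the 24 h table. Shares of all reads would therefore be lower.

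Levels of different genes were compared as normalized counts per kilobase of the longest transcript. *Gbp2* was first in sdAb#07.81 (48 h), at 1252 ± 255 per kilobase (SD, n = 2), followed by *Gbp3* at 599.1, *Gbp9* at 541.4, *Igtp* at 526.2 and *Irgm1* at 441.9. *Gbp3*, *Gbp9* and *Igtp* each overlapped the next in the values of their libraries, as did *Irgm2* and *Gbp7*, at 300.7 and 283.7. *Gbp5* stood lower at 102.9, and *Iigp1* and *Gbp6*, at 43.37 and 34.74, overlapped at the bottom of the order. In sdAb#07.81 (24 h) the order was different at the top. There *Irgm1*, at 111.2 per kilobase, stood above *Gbp2* at 98.55 and overlapped it. *Gbp2* in turn overlapped *Gbp9* at 84.19, which did not overlap the next gene. *Irgm2* at 43.27, *Gbp3* at 38.94, *Igtp* at 34.28 and *Gbp7* at 34.26 came next, with overlap between neighbours among these 4. *Gbp5* was at 9.17, and *Gbp6* and *Iigp1*, at 2.65 and 2.40, overlapped. With the median in place of the longest transcript, *Gbp2* kept the first place at 48 h and *Irgm1* at 24 h, and *Gbp3* moved from the fifth to the second place in sdAb-Con (48 h).

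The comparison of sdAb#07.81 (48 h) with sdAb-Con (48 h) asks what the anti-NUPR1 clone changes at a matched time. All 10 members passed the filter on low counts, and 10 of 10 were called higher at an adjusted p under 0.05 in limma, where 8.85% of the 13816 tested genes were called higher and 6.41% lower. With upper-quartile scaling the split over all genes moved from 1223 higher and 886 lower to 1464 higher and 482 lower. The members' contrast is the one they were chosen on, so nothing is read from this count. Log2 fold changes ran from 0.71 in *Gbp2* to 2.05 in *Iigp1*, with medians of 1.08 over the 4 IRG members and 1.30 over the 6 GBP members, against -0.02 over all tested genes. In the ranking of all tested genes by fold change, *Iigp1* was at place 13, *Gbp3* at 87 and *Gbp2* at 649. Without library a of sdAb#07.81 (48 h) the number of called genes fell from 2109 to 424, and without either library of sdAb-Con (48 h) it was 1289 or 1228. Across genes, the fold change in this comparison increased with transcript length (Spearman's rho of 0.45 over 13665 genes that share the same 4 libraries). In the comparisons of sdAb#07.81 (48 h) and of sdAb-Con (48 h) with 24 h it decreased with length, with rho of -0.12 and -0.32. Against the control clone, tested genes of like length to the members had median log2 fold changes between -0.14 and 0.13, and the members' values less these medians ran from 0.74 to 2.11. In the comparisons with 24 h these differences ran from 2.06 to 4.18 for sdAb#07.81 (48 h) and from 1.33 to 2.84 for sdAb-Con (48 h).

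The comparison of sdAb#07.81 (48 h) with sdAb#07.81 (24 h) follows the same clone over time. Here 10 of 10 members were called higher, where 19.9% of 13851 tested genes were called higher and 21.3% lower, and nothing is read from this count either. The sdAb#07.81 (48 h) libraries are the same as in the comparison with the control clone. With total-count scaling the split over all genes turned from 2750 higher and 2944 lower to 3024 higher and 2646 lower. Log2 fold changes ran from 1.97 in *Irgm1* to 4.17 in *Iigp1*, and 7 of the members were among the 100 genes with the highest fold change. The medians over the IRG and GBP members were 3.34 and 3.55, against -0.01 over all tested genes. *Iigp1* was 18.0-fold, *Gbp3* 15.5-fold, *Gbp2* 12.6-fold and *Gbp5* 10.9-fold higher at 48 h than at 24 h, with *Igtp* and *Gbp6* between *Gbp3* and *Gbp2*. This order was not stable, since without library a of sdAb#07.81 (24 h) the log2 fold change of *Gbp6*, 3.16, lay below that of *Gbp5*, 3.29. The other 4 members were between 3.91- and 8.31-fold higher.

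**Figure D3:**
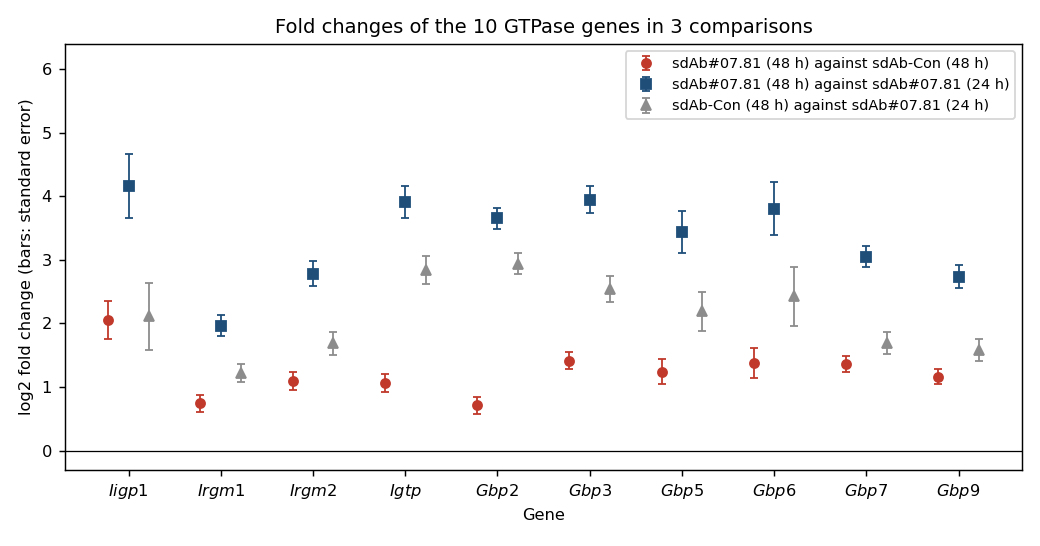
Log2 fold changes of the 10 GTPase genes, with bars for the standard error from limma, in the comparisons of sdAb#07.81 (48 h) with sdAb-Con (48 h) (circles), of sdAb#07.81 (48 h) with sdAb#07.81 (24 h) (squares) and of sdAb-Con (48 h) with sdAb#07.81 (24 h) (triangles). All values are above 0, and the circles lie below the squares for each gene, with *Gbp2* and *Irgm1* lowest among the circles and *Irgm1* lowest among the squares.

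The difference between both comparisons is the contrast of sdAb-Con (48 h) with sdAb#07.81 (24 h). It was fitted on the 4 libraries of these groups, in which 24.4% of 13747 tested genes were called higher and 25.7% lower, and 10 of 10 members were called higher, from which again nothing is read. The split of all called genes, 3361 higher and 3529 lower, was 2865 and 3993 with upper-quartile scaling and turned to 3588 and 3134 with total-count scaling. *Gbp2* and *Igtp* were furthest above their 24 h level in the control clone, with log2 fold changes of 2.94 ± 0.168 (SE) and 2.85 ± 0.218, and *Irgm1* was least so, at 1.23 ± 0.140. Without library b of sdAb#07.81 (24 h) *Gbp6*, at 3.06, was above *Gbp2* and *Igtp*, at 3.04 and 2.94. Without library a of that group *Gbp9*, at 1.18, was below *Irgm1*, at 1.31. In point estimates the difference from 24 h was divided differently in *Gbp2* and *Iigp1*. For *Gbp2* the control clone was 7.69-fold above sdAb#07.81 (24 h) and sdAb#07.81 (48 h) a further 1.64-fold above the control clone. For *Iigp1* these values were 4.33-fold and 4.15-fold. The former, 2.115 ± 0.528 (SE) on the log2 scale, rested on 5 and 11 reads in sdAb#07.81 (24 h). It was 1.55 without library a and 2.67 without library b of that group. The difference of the authors' means, taken between the separately normalized tables and multiplied by 2, gave a median of 369.9 normalized counts over the members for the same contrast, from 19.23 in *Iigp1* to 1515 in *Gbp2*. The shared sdAb#07.81 (48 h) libraries had size factors of 0.994 and 0.946 in the sdAb-Con table. In the 24 h table these were 0.965 and 0.916, so the difference only approximates this contrast.

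**Figure D4:**
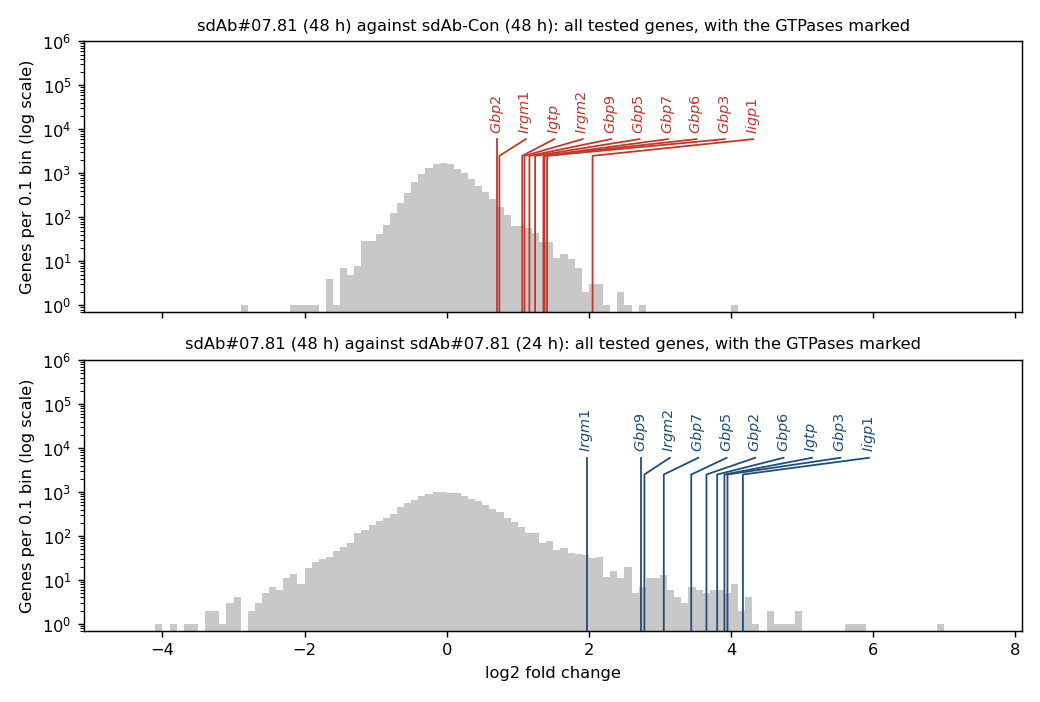
Number of tested genes per 0.1 bin of log2 fold change on a log scale, for sdAb#07.81 (48 h) against sdAb-Con (48 h) (top) and against sdAb#07.81 (24 h) (bottom), with vertical lines at the 10 GTPase genes. In the top panel the members run from 0.71 to 2.05 and *Iigp1* stands apart, and in the bottom panel they run from 1.97 to 4.17.

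Other genes of both families were counted from lists of the families. Of 17 further IRG symbols, 9 were in the tables and 5 had enough reads to be tested, of which 3 were called higher against sdAb-Con (48 h), beside 8.85% of all tested genes. These were the near-identical copies *Tgtp1* and *Tgtp2*, with log2 fold changes of 1.39 ± 0.238 (SE) and 1.01 ± 0.236, and *9930111J21Rik2*, with 1.24 ± 0.177. *Tgtp1* had 136 and 180 reads in sdAb#07.81 (48 h), 75 and 53 in sdAb-Con (48 h) and 16 and 19 in sdAb#07.81 (24 h). *9930111J21Rik2* had a log2 fold change of 0.03 ± 0.217 for sdAb-Con (48 h) against sdAb#07.81 (24 h), for which every member lay above 1. *Irgq*, a distant IRG relative, had between 417 and 522 reads in each library and a log2 fold change of 0.02 ± 0.134 against the control clone.

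Of 11 further genes of the GBP list, 9 were tested and 4 were called higher against sdAb-Con (48 h), namely *Gbp4*, *Gbp10*, *Gvin2* and *Gbp2b*, with log2 fold changes between 0.83 and 1.11, beside 8.85% of all tested genes called higher. For sdAb-Con (48 h) against sdAb#07.81 (24 h), 4 of the 9 were called higher and 3 lower, beside 24.4% and 25.7% of all tested genes. The higher ones were *Gbp2b* at 2.95, *Gbp4* at 2.84, *Gbp8* at 2.63 and *Gbp10* at 2.27 on the log2 scale. The lower ones were *Gvin2* at -0.65, *Atl2* at -0.34 and *Atl3* at -1.005 on the log2 scale. *Gbp4* had 3532 and 3294 reads in sdAb#07.81 (48 h), 1915 and 1491 in sdAb-Con (48 h) and 169 and 380 in sdAb#07.81 (24 h). *Gbp8*, which overlaps *Gbp9*, had 111 and 114 reads, 128 and 78 reads, and 10 and 29 reads in the same order of groups. The log2 fold change of *Gbp8* against 24 h was 2.88 ± 0.405 (adjusted p = 4.9e-05 in limma), and against the control clone it was 0.26 ± 0.222 (adjusted p = 0.47). *Gvin2*, a very large interferon-inducible GTPase, had log2 fold changes of 1.07 ± 0.179 against the control clone (adjusted p = 0.00017 in limma) and 0.42 ± 0.171 against 24 h (adjusted p = 0.062). The atlastins *Atl1*, *Atl2* and *Atl3*, which shape the endoplasmic reticulum and share the GBP fold, had log2 fold changes of 0.07, 0.25 and 0.08 against the control clone and were not called. *Atl3* fell by 0.92 on the log2 scale from 24 h to 48 h of sdAb#07.81 (adjusted p = 9e-06 in limma).

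The interferon pathway was described by role. Of its 7 listed ligands only *Ifnb1* was in the tables, with 2 and 4 reads in sdAb#07.81 (48 h), 3 and 0 in sdAb-Con (48 h) and 1 and 0 in sdAb#07.81 (24 h), too few for a difference to be detectable. *Ifng*, *Ifna1*, *Ifna2*, *Ifna4*, *Ifnl2* and *Ifnl3* were not listed in either table. The receptor genes *Ifngr1*, *Ifngr2*, *Ifnar1* and *Ifnar2* had log2 fold changes from -0.17 to 0.05 against the control clone, where 0 of 4 were called in limma beside 8.85% of all tested genes called higher and 6.41% lower. Against 24 h they ran from 0.38 to 0.79, where 4 of 4 were called higher beside 19.9% of all tested genes. None of the 4 passed an unadjusted p under 0.05 against the control clone. Of the receptor kinases, *Jak2* was called higher against the control clone (0.46 ± 0.111) and *Jak1* and *Tyk2* were not.

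Among 5 transcription factors of the pathway, *Stat2* and *Irf9* were called higher against the control clone. *Stat2* had 1992 and 2423 reads in sdAb#07.81 (48 h), 1028 and 985 in sdAb-Con (48 h) and 491 and 452 in sdAb#07.81 (24 h), with log2 fold changes of 1.22 ± 0.122 (SE) against the control clone and 2.41 ± 0.145 against 24 h. *Irf9* was at 0.50 ± 0.116 and 2.29 ± 0.151. *Irf1*, the factor through which interferon gamma reaches ISREs, was at 0.13 ± 0.119 against the control clone (adjusted p = 0.49 in limma) and at 1.42 ± 0.121 against 24 h (adjusted p = 3.8e-07). *Irf8* was lowest, at -0.09 and 0.00. Of 3 inhibitors, *Usp18*, an interferon-induced brake on type I interferon signaling, was highest at 1.31 ± 0.166 and 4.23 ± 0.313, while *Socs3* was at -0.20 ± 0.141 and 0.46 ± 0.148. *Socs1*, with 11 to 19 reads in each library, was at 0.08 ± 0.465 and -0.19 ± 0.466 and was not called in either comparison. Over the whole pathway list 4 of 15 tested genes were called higher and 0 lower against the control clone, with a median log2 fold change of 0.13, where 8.85% of all tested genes were called higher and their median was -0.02. Against 24 h, 11 of 15 were called higher and 0 lower, with a median of 0.43, where 19.9% of all tested genes were called higher and their median was -0.01. For sdAb-Con (48 h) against sdAb#07.81 (24 h), 10 of 15 were called higher and 0 lower, with a median of 0.47. Of all genes tested in that contrast, 24.4% were called higher and 25.7% lower.

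**Figure D5:**
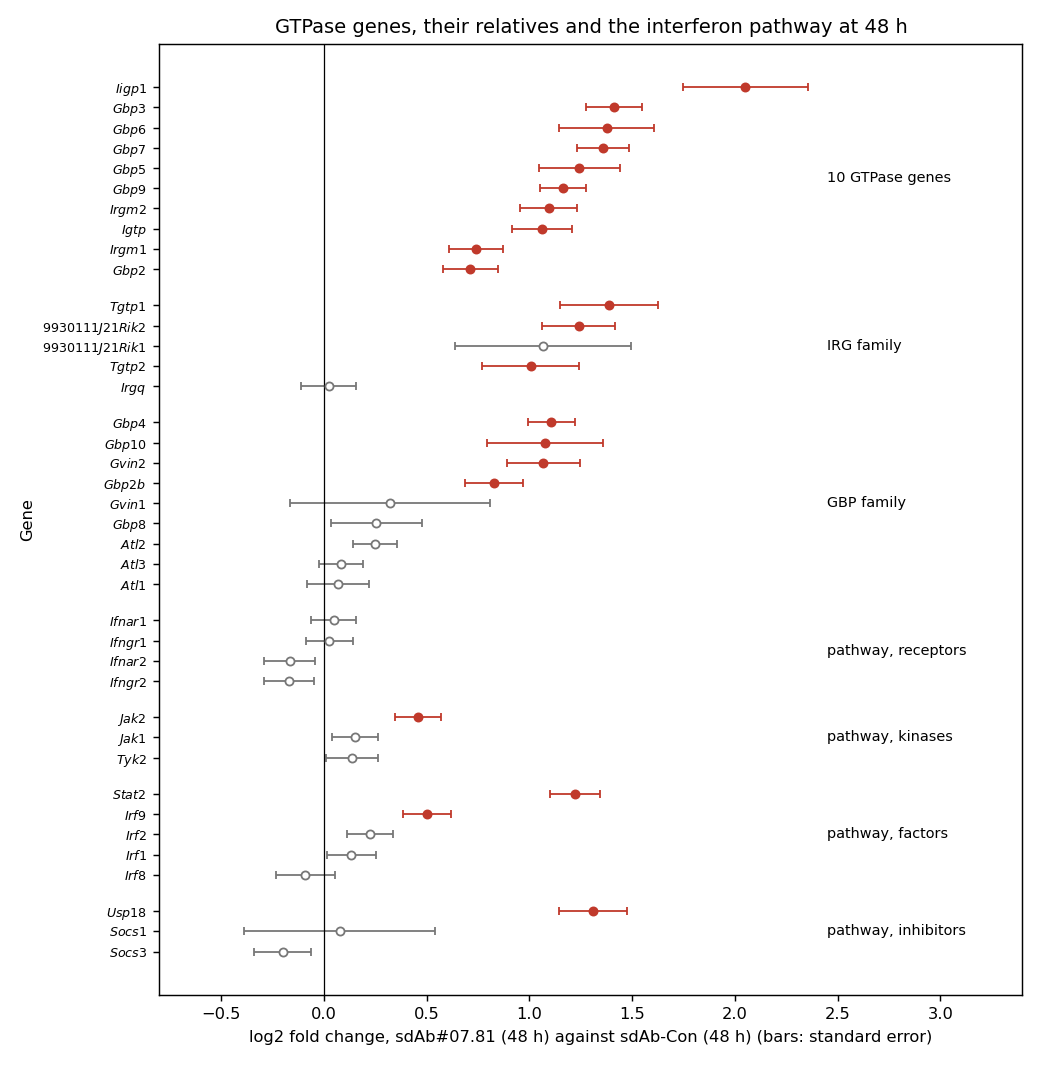
Log2 fold changes of sdAb#07.81 (48 h) against sdAb-Con (48 h) with standard errors for the 10 GTPase genes, other tested genes of the IRG and GBP families and the interferon pathway by role. Filled red points were called higher at an adjusted p under 0.05, and open points were not called. *Stat2* and *Usp18* lie at 1.22 and 1.31, within the range of the GTPases, while the 4 receptors lie between -0.17 and 0.05.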

How the data were processed

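The authors sequenced total RNA of 4T1 cells on an Illumina NovaSeq instrument. Per the submitters' processing notes the tools were cutadapt 1.9.1, HISAT2 2.0.1 and HTSeq 0.6.1, with the human build GRCh38.p14, although the tables list mouse genes. Coordinates in the tables name no build and differ from GRCm38, so they were used only for chromosome, strand and overlap. The authors deposited 2 tables of comparisons. The signal values that the authors deposited are means over 4 libraries of reads divided by size factors. Gene identifiers, symbols, positions and strands were also taken from the deposited annotation. The authors' fold changes and p-values were not used.

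A count model was planned only for tables with counts per library. The columns hold none, so a step devised after the tables were seen recovered whole reads from the means, and limma was used on them. No count model was run on the recovered reads. Each mean is printed with 15 digits, and both means of a gene were solved together for 6 whole numbers. Exactly 1 solution existed for 28602 of 28712 genes (99.6%), and the 110 others, all with means of at least 14906, held 22.7% and 18.9% of the summed means and were left out. For 21232 of 21232 genes with means under 1000, each table solved alone gave the same reads in the shared libraries. Size factors recomputed from the reads differed from those in the means by at most 0.12%. In simulated tables of 27135 genes the recovery gave a single solution for 27123, and all 6 counts were right in each of these. The simulation used only genes that had a single solution in the real tables, so it does not cover the 110 genes left out. The libraries in both tables are sdAb#07.81 (48 h), recognized because they never had a read for a gene missing from the other table. The names of the tables give the other groups, and the table against the other 48 h clone was taken as sdAb-Con (48 h), the only such group in the labels. Replicate numbers are not known, hence library a and b.

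Reads were scaled by the median of ratios over the 6 libraries. Genes with a mean of at least 10 over the 4 libraries compared were tested with limma 3.58.1 (voom with an offset of 0.5, R 4.3.3), two-sided, with Benjamini-Hochberg adjustment over all tested genes and a threshold of 0.05. Fold changes are therefore on a log2(count + 0.5) scale and understate changes of low genes. P-values measure only the spread between these libraries, which may be technical. Standard errors are limma's moderated ones. Lengths are from GENCODE M21 by gene identifier. The members and lists were chosen with earlier results of these data known. All 10 members were named, and family and pathway genes beyond the highest and lowest of each list were named after their values were seen. One factor of the pathway list is not reported here. Python 3.11.15 was used for the other steps.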

Additional observations from a re-analysis of the deposited data

How the results depend on the processing

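All 10 members were above 0 on the log2 scale in the comparisons of sdAb#07.81 (48 h) with sdAb-Con (48 h) and with sdAb#07.81 (24 h) and of sdAb-Con (48 h) with sdAb#07.81 (24 h) under the alternatives run, and the number called higher was 10 except with a mean of at least 100, where 9, 8 and 7 passed that filter and were called. Since the members were chosen on these contrasts, nothing is read from these counts, beside which the number of all genes called higher ran from 362 to 1464, from 1904 to 3024 and from 2321 to 3588 in the same order of comparisons. Of 374 alternative log2 fold changes of members, 321 were within their standard error of the reported value and 53 moved by more, 51 of these on leaving out a library. The members' median ran from 1.02 to 1.36 against sdAb-Con (48 h), from 3.22 to 3.79 against sdAb#07.81 (24 h) and from 1.67 to 2.50 for sdAb-Con (48 h) against sdAb#07.81 (24 h) when 1 library was left out. The lone library of a group was then assumed to vary like the others. With a mean of at least 100, which drops the lowest members, the medians were 3.25 and 1.69 for the comparisons with 24 h. Called genes against sdAb-Con (48 h), 2109 as reported, were 1009 with no filter on low counts and 1362 in one fit over the 6 libraries, and ran from 424 (without library a of sdAb#07.81 (48 h)) to 2265 on leaving out a library. Called genes in the comparison with 24 h, 5694 as reported, ran from 3827 to 5603 on leaving out a library. For the difference of the authors' means, scaling each table by the median ratio gave 422.2 in place of 369.9. The cause of these shifts was not tested. The alternatives with other scalings, limma-trend, a mean of at least 100, one fit, unsolved genes at their nearest solution and removal of the length median were chosen after seeing the data. The planned DESeq2 alternative, single members' means divided by their table's sum and shares of genes past a fold between the tables were not run, and no member symbol was repeated. No paired analysis was possible because the recovered libraries carry no replicate number. Precision at this depth is limited most for *Iigp1* and *Gbp6*, with 5 to 17 reads at 24 h.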
